A study of Mus musculus with 2 samples.

Results

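The 39 protein-coding Hox genes of the mouse were followed in bulk RNA-seq of 2 rhabdoid tumors (RT). They were taken from the 55416 genes of the count table by symbol, as Hoxa, Hoxb, Hoxc or Hoxd followed by a number. The Hoxa cluster held 11 of them, the Hoxb cluster 10, and the Hoxc and Hoxd clusters 9 each, on mouse chromosomes 6, 11, 15 and 2. Both tumors came from mice of the genotype Dppa3-cre::Smarcb1 Fl/+, which carry 1 floxed Smarcb1 allele and a Cre recombinase driven by Dppa3, a gene active in primordial germ cells. One library was made from a tumor labelled intracranial, at the trigeminal nerve, and one from a tumor labelled extracranial, in the facial, maxillary region, and both were classified as MYC. Neither tumor was given a treatment in the labels, and no tumor-free control was analysed here. With 1 library per location there was no replicate, so no test between locations was possible, and every interval below covers counting error only and compares 2 libraries.

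Hox genes encode homeodomain transcription factors that give cells their position along the head-to-tail axis of the embryo. In mammals they lie in 4 clusters, and genes at the same place in different clusters form paralog groups, numbered from 1 at the end used toward the head to 13 at the end used toward the tail. Low-numbered groups pattern the hindbrain and the pharyngeal arches behind the jaw, middle groups the neck and trunk, and high-numbered groups the lumbar region, tail, limbs and urogenital tract. The cranial neural crest that forms the upper and lower jaw is known for forming without Hox expression. The proteins bind DNA with PBX, MEIS and PREP (Pknox) cofactors, the clusters are held silent by Polycomb complexes, and caudal (Cdx) factors and retinoic acid are known activators in the embryo.

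The clusters also carry microRNAs, which are shown here because their targets include Hox transcripts of the clusters that differed between the tumors. The miR-196 genes lie in the Hoxa, Hoxb and Hoxc clusters and the miR-10 genes in the Hoxb and Hoxd clusters. The mature sequences, from RefSeq on GRCm38.p6, are written with the seed, bases 2 to 8, in capitals.
miR-196a-5p: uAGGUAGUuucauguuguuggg
miR-196b-5p: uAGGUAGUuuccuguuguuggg
miR-10a-5p: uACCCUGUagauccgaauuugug
miR-10b-5p: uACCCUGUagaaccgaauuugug
Both miR-196 forms share the seed AGGUAGU, and both miR-10 forms share ACCCUGU. The 3′ UTR of Hoxb8 holds a near-complete complement of miR-196a-5p, at positions 2208 to 2229 of the 2635-base transcript chosen for Hoxb8 (the longest in the annotation with a 3′ UTR), written with the bases that pair by Watson-Crick rules in capitals.
Hoxb8 site: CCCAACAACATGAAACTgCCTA
Of the 22 positions of the site, 21 paired with miR-196a-5p and 20 with miR-196b-5p. The seed complement ACTACCT was found in the 3′ UTRs of 8 of the 39 Hox transcripts (20.5%), those of Hoxa4, Hoxa5, Hoxa7, Hoxa9, Hoxb1, Hoxb6, Hoxb7 and Hoxc8, against 6.06% of 21020 protein-coding transcripts. The miR-10 seed complement ACAGGGT was found in 4 of 39 (10.3%), among them Hoxa3, Hoxb3 and Hoxd1, against 12.3%. These are matches of letters and not measured sites. Mature microRNAs carry no poly(A) tail and were not measured in these poly(A)-selected libraries, and the precursors of those named here were counted 0 or 1 times.

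The start regions of Hoxb8 and Hoxb4 are shown. These genes had the largest and the smallest ratio between the tumors within the Hoxb block described below. No other gene of that block had a RefSeq promoter available here, so the windows cannot be set against the rest of the block. Each start region runs from 250 bases before to 50 bases after the start in RefSeq on GRCm38.p6. Capitals mark the caudal motif TTTATG and the retinoic acid receptor half-site AGGTCA, each searched on both strands.
Hoxb8 promoter, chr11:96281655-96281954, plus strand: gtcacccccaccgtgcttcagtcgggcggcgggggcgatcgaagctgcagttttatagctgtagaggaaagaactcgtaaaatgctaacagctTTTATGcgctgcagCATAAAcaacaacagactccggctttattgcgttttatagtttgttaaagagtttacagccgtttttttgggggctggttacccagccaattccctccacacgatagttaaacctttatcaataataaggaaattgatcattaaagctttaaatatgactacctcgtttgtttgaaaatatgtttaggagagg
Hoxb4 promoter, chr11:96318017-96318316, plus strand: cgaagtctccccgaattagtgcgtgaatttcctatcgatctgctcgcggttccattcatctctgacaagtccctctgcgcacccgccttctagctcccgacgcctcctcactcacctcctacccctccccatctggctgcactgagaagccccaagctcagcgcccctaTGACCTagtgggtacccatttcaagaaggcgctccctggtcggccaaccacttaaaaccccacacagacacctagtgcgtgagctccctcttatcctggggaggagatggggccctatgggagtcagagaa
The Hoxb8 window held 2 caudal matches, 1 on each strand, and no half-site, and the Hoxb4 window held 1 half-site and no caudal match. Promoters in the table numbered 24 for 22 of the 39 Hox genes. The caudal motif was in 5 of the 24 (20.8%) against 11.9% of all 32851 promoters, and the half-site in 7 of the 24 (29.2%) against 16.3%. The motif TGATNNAT, bound by PBX with a Hox partner, was in 4 of the 24 (16.7%) against 8.85%. A match describes the letters of a window and nothing about a factor's binding.

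The libraries held 34545846 counts (intracranial) and 26915696 counts (extracranial). Levels are given as CPM, counts scaled to a common library size,, and as CPM per kilobase of exon where genes are set beside each other. A count of 3 or fewer was treated as background, which is 0.0863 CPM in the intracranial and 0.112 CPM in the extracranial library. Smarcb1, the floxed gene, had 365 counts (10.5 CPM) in the intracranial and 530 counts (19.8 CPM) in the extracranial library, so its transcript was measured in both. The paper reports that Smarcb1 protein was lost, by staining, in an intracranial and an extracranial tumor of this genotype. Bulk RNA cannot tell transcripts of tumor cells from those of other cells in the sample. The cell makeup differed. Summed over 10 keratinocyte markers, the level was 22339 CPM in the intracranial and 3.18 CPM in the extracranial library. Krt5, Krt6a, Krt15, Trp63 and Dsg3 were at 0 in the extracranial library. Krt13 (10554 and 0.187 CPM) and Krt4 (5747 and 0.336 CPM) led the intracranial sum. Locations are given as labelled, and whether the markers go with the labelled sites was not tested. The 8 Schwann cell markers summed to 224.2 and 162.7 CPM, of which Pmp22 was 177.5 and 135.4 CPM. Of their intervals, 7 lay below and 1 above equal levels, with 43 and 0 counts for Sox10 and 86 and 282 for Mag. Skeletal muscle markers summed to 48.2 and 9.45 CPM, with 7 of 7 intervals below equal levels, and endothelial markers to 98.0 and 218.1 CPM, with 6 of 6 above. Several other lists were also mixed. Of 5 neutrophil markers with enough counts, 4 intervals lay below and 1 above equal levels, and S100a9 had 14455 and 13 counts where Csf3r had 692 and 1542. Of 8 bone and cartilage markers, 3 lay above, 3 below and 2 spanned equal levels, and the sum of 43.5 and 178.5 CPM turned on Dmp1, with 29 and 3988 counts. Of 8 lymphocyte markers, 3 lay above and 5 spanned equal levels, with 57 and 607 counts for Cd79b. Of 8 neuron markers, 5 lay below and 3 above. The part of these cells in the Hox values was not tested. The 8 macrophage markers had intervals above equal levels in the extracranial library, 8 of 8, and summed to 5171 and 11178 CPM. Of 9 germ cell markers, 6 were above background in each library, among them Dppa3 with 20 and 91 counts, Prdm1 with 322 and 313 and Tfap2c with 320 and 7, while Pou5f1 and Prdm14 were at 0 in both. In bulk RNA, fewer cells of a type and less RNA per cell cannot be told apart.

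Both tumors expressed a broad stretch of the Hoxc cluster, while the Hoxa cluster was almost silent. Counts above background were found for 15 Hox genes in the intracranial library and 19 in the extracranial library, 14 of them in both. The genes above background in the extracranial library alone included Hoxb3, Hoxb5, Hoxc12 and Hoxc13, and Hoxa2 was so in the intracranial library alone. Another 8 genes had 1 to 3 counts in at least 1 library and never more. The remaining 11 genes, Hoxa5, Hoxa6, Hoxa9, Hoxa10, Hoxa11, Hoxb1, Hoxb13, Hoxd3, Hoxd10, Hoxd11 and Hoxd12, had 0 counts in both libraries. A count of 0 here allows a level of up to 0.106 CPM in the intracranial and 0.138 CPM in the extracranial library. All Hox genes together made up 187.6 CPM (183.1 to 192.2) in the intracranial and 165.6 CPM (160.7 to 170.5) in the extracranial library.

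**Figure D1:**
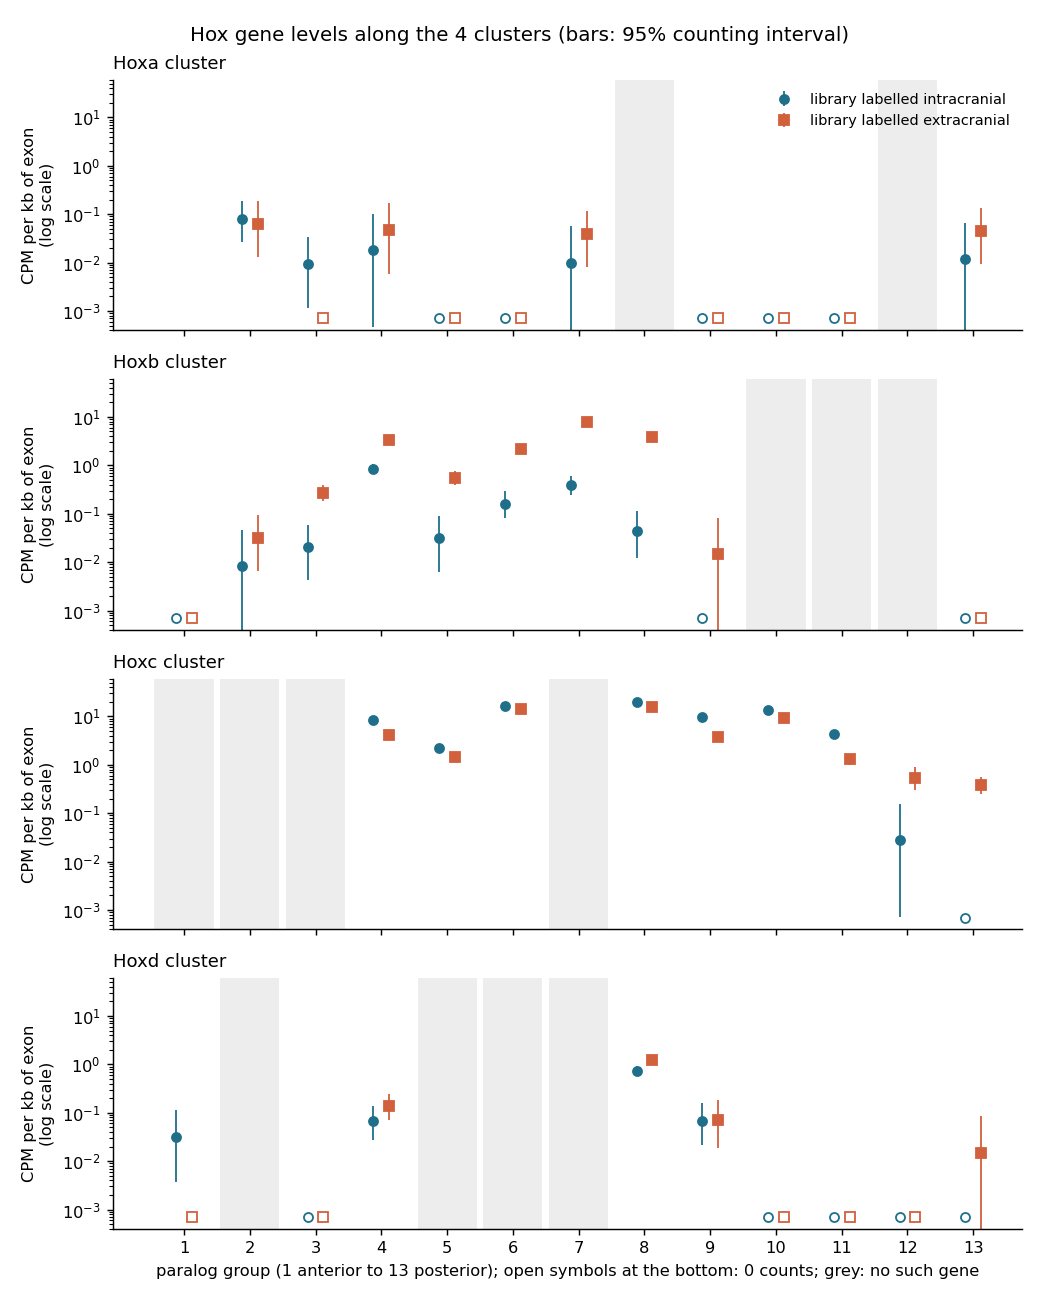
Level of the Hox genes reported here in CPM per kilobase of exon (log axis) against its paralog group, with a panel for each cluster, for the intracranial (circles) and extracranial (squares) library. Bars are 95% counting intervals, clipped at the lower axis limit, open symbols mark 0 counts and grey columns mark genes the mouse lacks. Hoxc4 to Hoxc11 are well above background in both libraries. Hoxb3 to Hoxb8 lie above the intracranial circles in the extracranial library throughout.

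The Hoxc cluster supplied most Hox RNA in both tumors, and every gene from Hoxc4 to Hoxc11 was well above background. In the extracranial library a low tail reached into Hoxc12 and Hoxc13. Hoxc8, which is known for roles in the thoracic skeleton and in forelimb motor neurons, was the most abundant Hox gene, with 1917 counts (55.2 CPM) in the intracranial and 1174 counts (43.9 CPM) in the extracranial library. Hoxc6, another trunk gene, had 1352 counts (38.9 CPM) and 896 counts (33.5 CPM). These were the smallest differences of the cluster, with log2 ratios (extracranial over intracranial) of -0.33 for Hoxc8 (95% interval -0.44 to -0.23) and -0.22 for Hoxc6 (-0.34 to -0.094). Hoxc5 stood at 237 and 122 counts (6.82 and 4.56 CPM, log2 ratio -0.58, -0.91 to -0.26). Hoxc10, a gene of lumbar segments, stood at 916 and 472 counts (26.4 and 17.6 CPM, log2 ratio -0.58, -0.74 to -0.42). Hoxc5 and Hoxc10 thus had similar ratios, with overlapping intervals, at different levels.

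The larger Hoxc differences were at Hoxc4, Hoxc9 and Hoxc11. Hoxc4, the most anterior gene of the cluster, had 747 counts (21.5 CPM) in the intracranial and 282 (10.5 CPM) in the extracranial library, a log2 ratio of -1.03 (-1.23 to -0.83). Hoxc9, which sets thoracic motor neuron identity, had 829 counts (23.9 CPM) and 241 counts (9.01 CPM), a log2 ratio of -1.41 (-1.62 to -1.20). Hoxc11, known from the hindlimb, had 303 counts (8.72 CPM) and 70 counts (2.62 CPM), a log2 ratio of -1.74 (-2.13 to -1.36), the lowest of any Hox gene. The levels from Hoxc4 to Hoxc11 were thus lower in the extracranial library at all 7 genes, by 1.16-fold to 3.33-fold.

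The last genes of the cluster went the other way. Hoxc12 had 1 count in the intracranial and 15 counts (0.561 CPM) in the extracranial library, a log2 ratio of 4.28 with a wide interval (1.58 to 9.68). Hoxc13, known for its role in hair and nail formation, had 0 counts in the intracranial and 25 counts (0.934 CPM) in the extracranial library. Set against the floor of 3 counts per library, Hoxc13 was at least 10.8-fold higher in the extracranial library, and the lower limit of its counting interval was 3.03 on the log2 scale. The keratinocyte markers summed to 3.18 CPM in that same library, as given above, and any link between them and Hoxc13 was not tested. Both genes stayed low there, at 0.455% and 0.758% of the cluster's counts.

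The Hoxb cluster had the largest fold difference of the 4 cluster sums, although the Hoxc sum differed more in CPM (181.4 and 123.2 against 3.42 and 37.7). A contiguous block from Hoxb3 to Hoxb8 was higher in the extracranial library at each gene, whereas the genes on either side of the block were at background. Hoxb8, a gene of the trunk that is also active in blood progenitors and a subset of microglia, had 4 counts (0.115 CPM) in the intracranial and 274 counts (10.2 CPM) in the extracranial library. Hoxb7 had 21 counts (0.604 CPM) and 317 counts (11.8 CPM), and Hoxb6 had 11 counts (0.317 CPM) and 116 counts (4.33 CPM). The corresponding log2 ratios were 6.47 for Hoxb8 (5.10 to 8.36), 4.29 for Hoxb7 (3.66 to 5.0) and 3.78 for Hoxb6 (2.88 to 4.82). The ratio was thus highest at the posterior edge of the block, where that of Hoxb8 rested on 4 intracranial counts. The Hoxb8 interval lay above those of Hoxb7 and Hoxb6.

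The remaining genes of the block, Hoxb3 to Hoxb5, had smaller ratios than Hoxb8, although the intervals of Hoxb3 and Hoxb5 overlapped that of Hoxb8. Hoxb5, which is active in the neural crest that forms the enteric nervous system, had 3 counts (0.0863 CPM) in the intracranial and 41 counts (1.53 CPM) in the extracranial library, a log2 ratio of 4.15 (2.50 to 6.49). Hoxb3, a hindbrain gene, had 3 counts and 31 counts (1.16 CPM), a log2 ratio of 3.75 (2.07 to 6.10). Hoxb4, which is known for the expansion of blood stem cells, was the most counted Hoxb gene of the intracranial library, where its 76 counts (2.19 CPM) were 63.9% of the cluster's counts. It had 226 counts (8.45 CPM) in the extracranial library, and its log2 ratio of 1.95 (1.57 to 2.34) was the smallest of the block. On either side of the block counts were at background in both libraries: Hoxb1 had 0 and 0 counts, Hoxb2 1 and 3, Hoxb9 0 and 1, and Hoxb13 0 and 0. In the extracranial library the step lay between Hoxb2 (3 counts) and Hoxb3 (31), and between Hoxb8 (274) and Hoxb9 (1), while in the intracranial library Hoxb3 and Hoxb5 were themselves at background and Hoxb8 was 1 count above it.

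Summed over the cluster, Hoxb had 119 counts (3.42 CPM) in the intracranial and 1009 counts (37.7 CPM) in the extracranial library, and its share of all Hox counts was 1.83% (exact 95% interval 1.52 to 2.18) and 22.8% (21.5 to 24.0). The share of Hoxc was 96.7% (96.2 to 97.1) and 74.4% (73.1 to 75.7). The levels of all 8 macrophage markers were also higher in the extracranial library, as given above, and their part in the Hoxb values was not tested.

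The Hoxd cluster was nearly a single-gene cluster in these tumors. Hoxd8 had 70 counts (2.01 CPM) in the intracranial and 89 counts (3.33 CPM) in the extracranial library, which were 83.3% and 84.8% of the cluster's counts, and its log2 ratio was 0.72 (0.26 to 1.20). Hoxd4 had 7 and 11 counts, with an interval that included equal levels (log2 ratio 1.03, -0.47 to 2.63), and Hoxd9 had 5 and 4 counts. Hoxd1 had 2 and 0 counts and Hoxd13 had 0 and 1. The genes Hoxd10, Hoxd11 and Hoxd12, known from limb development, were at 0, as was Hoxd3. Hoxd8 thus led the cluster in both libraries.

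The Hoxa cluster had 13 counts in all in the intracranial and 20 in the extracranial library, and none on 5 of its 11 genes. Hoxa2, the selector gene of the second pharyngeal arch, had 5 and 3 counts. Hoxa3, Hoxa4, Hoxa7 and Hoxa13 had 3 counts or fewer in each library. Hoxa5, Hoxa6, Hoxa9, Hoxa10 and Hoxa11 had none, although Hoxa9 and Hoxa10 are well known from blood progenitors and leukemia. No gene of this cluster was above background in both libraries.

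A gene was called where its whole 95% interval lay beyond 4-fold, and ratios were read only for genes with 10 or more counts over both libraries, which 18 of the 39 Hox genes had. Of these 18, 6 were called higher in the extracranial library (33.3%), against 1.78% of the 21977 genes with as many counts. They were Hoxb3, Hoxb5, Hoxb6, Hoxb7, Hoxb8 and Hoxc13. None of the 18 was called higher in the intracranial library, where the share over all genes was 5.41%. The 6 called genes included, 9 of the 18 had an interval wholly above equal levels and 7 wholly below, while 2 spanned them, Hoxd4 among them. Over all 21977 genes, 29.2% of intervals lay above and 32.2% below equal levels. The median log2 ratio of the 18 was 1.49, against -0.038 over all 21977 genes, with 3 counts set as the floor. The 21 Hox genes with fewer counts enter none of these shares.

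**Figure D2:**
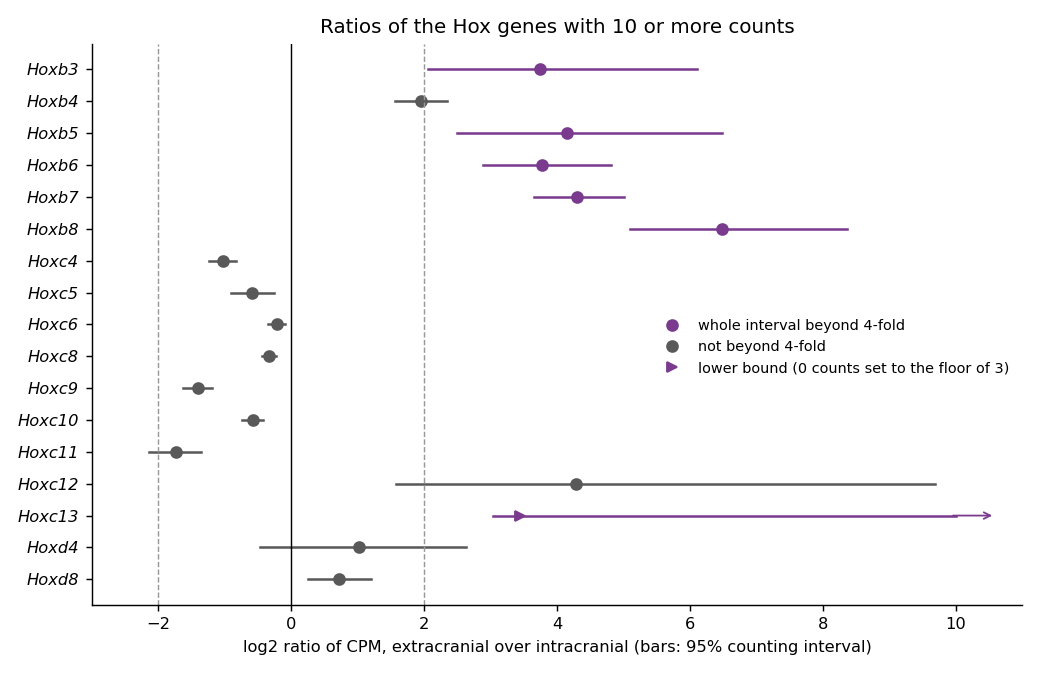
Log2 ratio of CPM, extracranial over intracranial, for 17 Hox genes with 10 or more counts, in cluster order, with 95% counting intervals. Dashed lines mark 4-fold, purple marks genes whose whole interval lies beyond it, and the triangle is the lower bound for Hoxc13. Hoxb3 to Hoxb8, Hoxc12 and Hoxc13 lie to the right and Hoxc4 to Hoxc11 to the left of 0, with Hoxb8 farthest out at 6.47.

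By paralog group the 2 libraries were closest where Hoxb genes added to a lower Hoxc gene. In group 8, Hoxb8 and Hoxd8 were higher and Hoxc8 was lower in the extracranial library, and the sums were 57.3 CPM (1991 counts) in the intracranial and 57.4 CPM (1537 counts) in the extracranial library, a log2 ratio of 0.0035 (-0.094 to 0.10). In group 6, the sums were 39.2 and 37.8 CPM (log2 ratio -0.053, -0.17 to 0.066), and in group 5 they were 6.91 and 6.09 CPM (-0.18, -0.48 to 0.11). Group 4 came to 23.9 and 19.5 CPM, a log2 ratio of -0.30 (-0.46 to -0.14). A Hoxc gene led each of these groups in both libraries, but its share differed. Per kilobase of exon, Hoxc8 was 96.2% of the level of group 8 in the intracranial and 75.2% in the extracranial library, Hoxc6 was 99.0% and 86.3% of group 6, Hoxc5 was 98.6% and 72.9% of group 5, and Hoxc4 was 89.9% and 54.1% of group 4.

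Groups without such a partner followed their single expressed gene. The mouse has no Hoxc7, and group 7 was Hoxb7 with a trace of Hoxa7, at 0.633 CPM in the intracranial and 11.96 CPM in the extracranial library (log2 ratio 4.24, 3.62 to 4.93). Groups 9, 10 and 11 were almost wholly Hoxc9, Hoxc10 and Hoxc11 and had log2 ratios of -1.38 (-1.60 to -1.18), -0.58 (-0.74 to -0.42) and -1.74 (-2.13 to -1.36). Group 3, with Hoxb3, went from 5 to 31 counts, group 12 from 1 to 15 and group 13 from 1 to 29. Group 2 had 6 counts in each library, with an interval that included equal levels.

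**Figure D3:**
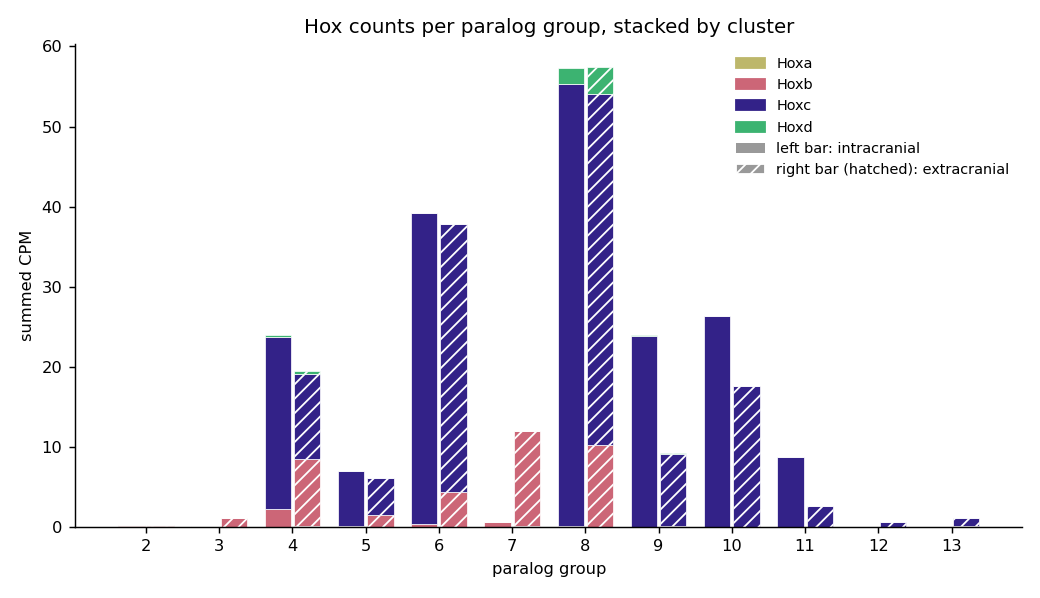
Summed CPM of paralog groups 2 to 13, stacked by cluster, for the intracranial (left, plain) and extracranial (right, hatched) library. Groups 6 and 8 reach the same height in both within counting error (57.3 and 57.4 CPM in group 8) with a larger Hoxb part on the right, group 7 is almost absent on the left, and groups 9 to 11 are taller on the left.

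Grouped by position, the 8 anterior genes of groups 1 to 3 had 16 and 46 counts, 0.245% and 1.04% of all Hox counts. The 15 central genes of groups 4 to 8 had 4447 and 3553 counts, or 128.0 and 132.8 CPM, a log2 ratio of 0.053 (-0.011 to 0.12). Their share of Hox counts was 68.2% in the intracranial and 80.2% in the extracranial library. The 16 posterior genes of groups 9 to 13 had 2055 and 832 counts, or 59.1 and 31.1 CPM, a log2 ratio of -0.93 (-1.05 to -0.81). The share of Hox counts from these posterior genes was thus 31.5% and 18.8%, and most of it came from Hoxc9, Hoxc10 and Hoxc11.

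Ranked per kilobase of exon, the intracranial library was led by 7 Hoxc genes before any gene of another cluster. The order was Hoxc8 (19.5 CPM per kilobase), Hoxc6 (16.2), Hoxc10 (13.8), Hoxc9 (9.82), Hoxc4 (8.37), Hoxc11 (4.31) and Hoxc5 (2.21), and each differed from the next beyond its counting interval. From Hoxb4 (0.852) downward, through Hoxd8 (0.734), Hoxb7 (0.391) and Hoxb6 (0.161) to Hoxb8 (0.0437), neighbours overlapped. In the extracranial library Hoxc8 (15.5) and Hoxc6 (13.9) overlapped at the top, and Hoxc10 (9.24) and Hoxb7 (7.67) overlapped behind them. Hoxc4 (4.10), Hoxb8 (3.89), Hoxc9 (3.71) and Hoxb4 (3.29) followed, each overlapping the next, and then came Hoxb6 (2.21). Hoxb7 and Hoxb8 had thus moved from ranks 10 and 15 in the intracranial to 4 and 6 in the extracranial library. For scale, the median of 16518 protein-coding genes was 3.29 CPM per kilobase in the intracranial and 2.99 in the extracranial library. Hoxc8 stood at percentile 87.3 and 84.0 of these genes, Hoxb7 at 19.9 and 70.8, and Hoxb8 at 5.07 and 55.6.

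Overlap between genes limits some of these counts, since whether counting used the strand was not stated in the sources used here. In the annotation, Hoxb4, Hoxb6, Hoxb7 and Hoxb8 and the Hoxc genes other than Hoxc5 and Hoxc10 shared no exon base with another gene. Hoxb3 shared 52.9% of its exon bases with Hoxb3os on the other strand, a row with 6 counts in the intracranial and 0 in the extracranial library. Hoxd4 shared 52.3% of its exon bases with other gene models, among them Hoxd3, so a Hoxd3 count of 0 is uncertain. Windows of 72 bases, the read length, that occur in transcripts of another gene made up 59.2% of those of Hoxd3, 44.2% of Hoxd4, 5.28% of Hoxc10 and 3.22% of Hoxc5, where Hoxc5 and Hoxc10 shared the same 97 windows. Every other gene of the Hoxb3 to Hoxb8 and Hoxc4 to Hoxc13 blocks had no such window, except Hoxc9 with 2.

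Noncoding genes between the outermost Hox genes of each cluster were few in these libraries, with 8 of 25 above background in at least 1 library. Hotair, a long noncoding RNA of the Hoxc cluster that lies between Hoxc11 and Hoxc12, had 48 counts (1.38 CPM) in the intracranial and 12 counts (0.448 CPM) in the extracranial library, a log2 ratio of -1.62 (-2.67 to -0.69). It was lower in the extracranial library, as Hoxc11 was, while Hoxc12 on its other side was higher. In the Hoxa cluster, Hotairm1 had 6 and 14 counts (log2 ratio 1.60, 0.13 to 3.27), and Hoxaas3 had 6 and 21 counts (2.18, 0.83 to 3.78). Hoxb5os had 0 and 6 counts and Hoxd3os1 had 8 and 10. The microRNA precursors had 0 or 1 counts, except Mir615 in Hoxc5 with 3 and 2. None of these rows with enough counts for a ratio was called in either direction, against 1.78% and 5.41% of all genes.

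Genes that act with Hox proteins were expressed in both tumors. All 9 PBX, MEIS and PREP cofactor genes were measured, and 0 of 9 were called in either direction. Over all genes with enough counts, 1.78% were called higher in the extracranial and 5.41% in the intracranial library. Pbx3 was the most counted, with 4045 counts (116.4 CPM) in the intracranial and 1138 counts (42.5 CPM) in the extracranial library, a log2 ratio of -1.45 (-1.55 to -1.36). Pknox2 had 320 and 67 counts (-1.88, -2.28 to -1.50), Meis2 416 and 136 (-1.24, -1.53 to -0.95) and Pbx4 65 and 11 (-2.19, -3.26 to -1.25). Pknox1 went the other way, with 514 and 762 counts (0.94, 0.78 to 1.11). The median log2 ratio of the 9 was -0.62, and 5 intervals lay below equal levels and 3 above, where 32.2% and 29.2% of all genes did so.

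Of 10 genes known to activate or maintain Hox transcription, 8 had enough counts for a ratio. Of the 8, 1 was called higher in the extracranial library, against 1.78% of all genes, and 0 in the intracranial, against 5.41%. The caudal factor genes were at or near 0: Cdx2 and Cdx4 had 0 counts in both libraries, and Cdx1 had 9 and 15 counts (log2 ratio 1.11, -0.17 to 2.49). Egr2 (Krox20), which drives Hoxb2 and Hoxa2 in the hindbrain and is also a macrophage and Schwann cell gene, was the 1 gene called, with 630 counts (18.1 CPM) in the intracranial and 2396 counts (89.5 CPM) in the extracranial library. Hoxa2 and Hoxb2 had 5 counts or fewer in both. Kmt2a (Mll1), which maintains Hox expression, had 2211 and 1832 counts (63.6 and 68.5 CPM), a log2 ratio of 0.11 (0.015 to 0.20). Gdf11, a signal for posterior Hox genes in the trunk, had 223 and 95 counts (-0.85, -1.22 to -0.50).

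The retinoic acid pathway held the largest differences of these lists. Aldh1a2, which encodes an enzyme that makes retinoic acid, had 16 counts (0.46 CPM) in the intracranial and 1420 counts (53.1 CPM) in the extracranial library, a log2 ratio of 6.85 (6.14 to 7.66). Aldh1a3, a second such enzyme, had 425 and 2427 counts (2.89, 2.74 to 3.04). Among the enzymes that degrade retinoic acid, Cyp26a1 had 5 and 41 counts (3.41, 2.07 to 5.11), whereas Cyp26b1 had 289 and 25 (-3.15, -3.81 to -2.56). Stra6, the cellular retinol uptake receptor, had 69 counts in the intracranial and 1 in the extracranial library. Of the 15 genes of this list with enough counts, 3 were therefore called higher in the extracranial and 2 in the intracranial library. Over all genes these shares were 1.78% and 5.41%. Of the receptor genes, Rarg and Rara differed less, with 4719 and 2395 counts (-0.60, -0.67 to -0.53) and 753 and 378 (-0.62, -0.80 to -0.44). Rarb had 17 and 2 counts, with a wide interval of the log2 ratio (-5.87 to -0.64). Crabp1, a retinoic acid binding protein gene, was high in both, at 880.2 and 1019.5 CPM. The list's median log2 ratio was 0.12, and whether any of these genes bears on the Hoxb values was not tested.

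The Polycomb genes, whose products keep Hox clusters silent, were expressed in both libraries with ratios close to 1. All 20 were measured and 0 of 20 were called in either direction, against 1.78% and 5.41% of all genes. The median log2 ratio was 0.096. Of the 20 intervals, 10 lay above equal levels, 6 below and 4 spanned them, against 29.2% above and 32.2% below over all genes. Ezh2, the main methyltransferase gene, had 885 counts (25.5 CPM) in the intracranial and 841 counts (31.4 CPM) in the extracranial library, a log2 ratio of 0.30 (0.17 to 0.44). Suz12 had 1452 and 1115 counts (-0.0042, -0.12 to 0.11), and Bmi1 had 2037 and 1344 (-0.22, -0.32 to -0.12). The ratios in the list ran from -0.51 for Cbx2 to 0.59 for Cbx8.

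**Figure D4:**
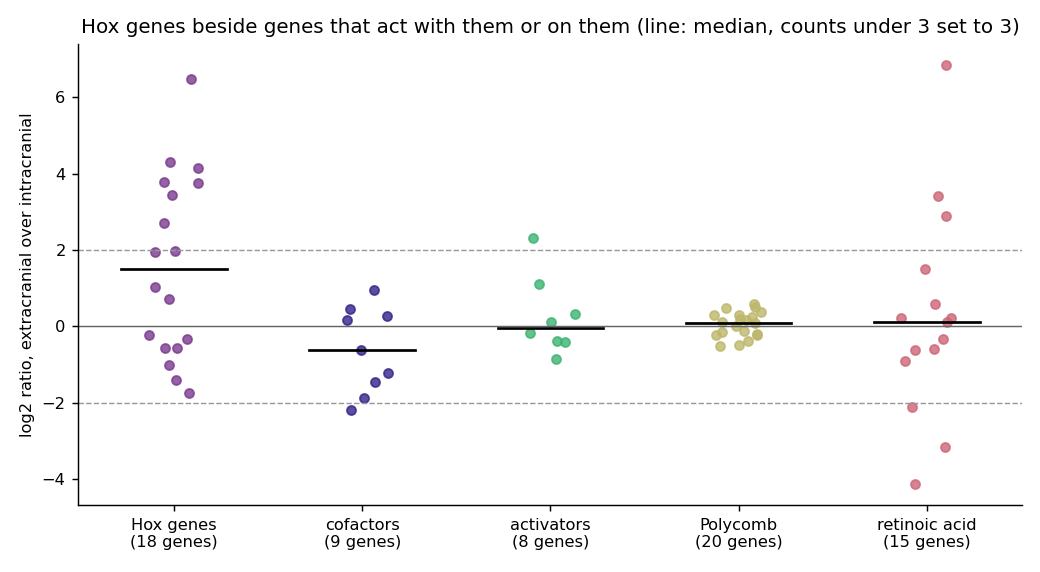
Log2 ratio, extracranial over intracranial, of each gene with 10 or more counts among the Hox genes, their cofactors, activators, Polycomb genes and retinoic acid pathway genes, with counts under 3 set to 3 and the median as a line. The Polycomb genes lie close to 0 (-0.51 to 0.59), while the Hox genes and the retinoic acid genes spread beyond the dashed 4-fold lines, the latter in both directions. The cofactor gene Pbx4 (-2.19) and the activator gene Egr2 (2.30) also lie beyond these lines.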

How the data were processed

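The deposited table held raw counts per Ensembl gene, 1 column per tumor, with no normalization. Per the labels and the study's methods, the authors selected poly(A) RNA, made directional libraries, sequenced single reads of 72 bases, aligned them with STAR 2.7.9a to GRCm39 and counted them with featureCounts. FastQC 0.11.9 and MultiQC 1.11 are in the submitters' processing notes. The strand setting and the handling of reads with several alignments are not given in the sources used here.

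Groups were the labelled localizations, 1 library each. Symbols, biotypes, exon lengths and gene order came from mouse GENCODE release 21, an older annotation on GRCm38, so coordinates are printed only for RefSeq sequences on GRCm38.p6. A symbol was found for 52083 of 55416 IDs. Library sizes were scaled by TMM (edgeR 4.0.16, R 4.3.3). Levels carry exact Clopper-Pearson 95% intervals, and ratios the conditional exact binomial interval. Since the reads carried no molecular identifiers, intervals and floors cover counting error only. For ratios, counts of 3 or fewer were set to 3 in medians, in bounds and in calls by the ratio alone. Intervals, and the calls made from them, used the counts as they are. Ratios of sums and of a gene with 1 to 3 counts also used the counts as they are. Genes at 3 or fewer in both libraries got no ratio. Without replicates, edgeR's quasi-likelihood model had no residual degrees of freedom and was not fitted. The interval procedure was run on simulated counts that varied by counting error only. That run cannot show how the intervals behave when libraries vary beyond counting error. All 39 Hox genes, the genes of the fixed lists and noncoding genes within the clusters could be named, except that 1 Hox gene and 1 gene of the activator list are not reported here by name. The members and lists were chosen with earlier results of these data known. Alternatives were DESeq2 1.42.0 size factors, total counts, upper quartile scaling, other minimums, floors and fold limits, a prior count of 2, levels with or without exon length, and sums without the leading gene.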

Additional observations from a re-analysis of the deposited data

How the results depend on the processing

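No paired analysis was possible because there was a single library per location, and for the same reason no library could be left out. The 6 calls among the 18 Hox genes, and the sign of each ratio, were kept under upper quartile scaling, DESeq2 size factors and total counts, which moved every log2 ratio by 0.038, 0.015 and -0.017. With a minimum of 100 counts, an alternative added after seeing the data, 3 Hox genes were called of 12 tested, all higher in the extracranial library. Of all 15582 genes tested at that minimum, 271 were called higher and 884 lower in the extracranial library. With an interval beyond 2-fold, 10 of the 18 Hox genes were called, 8 higher and 2 lower in the extracranial library. Of all 21977 genes 3434 were then called, 1287 higher and 2147 lower. With the ratio alone beyond 4-fold 2542 of all genes were called (787 higher and 1755 lower), against 1581 in the main setting. Counting genes with at least 1 count gave 25 in the intracranial library in place of 15. Without Hoxc8 the Hoxc sum had a log2 ratio of -0.67 in place of -0.56. Per kilobase of exon Hoxc8 was 25.4% and 22.2% of the summed Hox level in the intracranial and extracranial libraries, and without a length 29.4% and 26.5%. Another 91 values that answer a comparison, and 72 of single genes, stayed within their counting interval or within 1.5 times the count. Depth limits the Hoxa genes, Hoxb2, Hoxb9 and the posterior Hoxd genes, whose counts near 0 allow no ratio.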

Other observations

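Every Hox cluster had a neighbouring gene above background in both tumors. Of 16 neighbours found in the table, 12 had enough counts for a ratio, and their median log2 ratio was -0.11. Of the 12, 0 were called in either direction, against 1.78% and 5.41% of all genes. Beside the Hoxa cluster, Skap2 had 1531 counts in the intracranial and 2737 counts in the extracranial library (log2 ratio 1.21, 1.12 to 1.31), while Snx10 (-0.14, -0.26 to -0.023) and Hibadh (-0.27, -0.39 to -0.15) were close to equal. Beside the Hoxb cluster, Skap1 had 47 and 56 counts (0.63, 0.044 to 1.22), while Ttll6 had 1 and 0 counts and Calcoco2 had 0 in both libraries. Beside the Hoxc cluster, Smug1 had 544 and 314 counts (-0.42, -0.62 to -0.21) and Cbx5 had 3579 and 2604 (-0.082, -0.16 to -0.0088). Beside the Hoxd cluster, Mtx2 had 1272 and 783 counts (-0.32, -0.45 to -0.19), and Lnpk had 619 and 325 (-0.55, -0.75 to -0.36). The homeobox genes Evx1 and Evx2, at the posterior ends of the Hoxa and Hoxd clusters, had 0 counts in both libraries and 2 and 0 counts, like the posterior Hox genes beside them. The ParaHox genes, which are the sister genes of the Hox clusters, were at background: Gsx1 and Pdx1 had 0 counts in both libraries, and Gsx2 had 0 and 2.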
